A study of Rattus norvegicus with 19 samples.

Results

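The insulin receptor and PI3-kinase pathway is described here through 7 genes of the rat, Insr, Irs1, Irs2, Pik3r1, Pik3r2, Pik3ca and Akt1, of 14217 genes that the arrays name. All probe sets whose platform annotation gives a single symbol among these genes were taken, whatever their signal, which gave 16 of 31042 probe sets: 6 for Pik3ca, 3 for Akt1, 2 each for Insr and Pik3r2, and 1 each for Irs1, Irs2 and Pik3r1. The arrays held RNA of the paraventricular nucleus (PVN) and the supraoptic nucleus (SON), the hypothalamic nuclei whose large neurones make vasopressin and oxytocin. There were 5 arrays of the PVN of the spontaneously hypertensive rat (SHR), 5 of the PVN of its normotensive Wistar-Kyoto counterpart (WKY), 4 of the SON of SHR and 5 of the SON of WKY. All animals were untreated inbred males labelled as 12 weeks old, of the substrains SHR/NHsd and WKY/NHsd. Each array was taken to hold nuclei pooled from several animals, as the study's methods are read here, so an array averages over animals, and over all the cell types that the dissection carried.

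Insulin binds the insulin receptor, a tyrosine kinase of the cell surface, and the receptor phosphorylates adapter proteins, the insulin receptor substrates. These recruit the class I PI3-kinase, a pair of 1 regulatory and 1 catalytic subunit, which makes the membrane lipid PIP3, and this lipid brings the kinase Akt to the membrane to be activated. Akt in turn restrains the FOXO transcription factors and acts on glycogen synthesis, protein synthesis and nitric oxide production. In the hypothalamus insulin is known as a signal of energy stores that also raises sympathetic nerve activity.

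Levels are given as log2 signal, where a difference of 1 is 2-fold. Signals were compared only within a probe set, since the binding of probes differs between probe sets and the arrays give no length-scaled level. Dim probe sets were left out of a comparison unless a group mean came up to the median over probe sets (log2 5.33 in the PVN, 5.32 in the SON). A probe set passed when the adjusted p of the limma test, over all probe sets tested, was under 0.05. Of the 16 probe sets, 12 were tested in the PVN (5 genes) and 12 in the SON (6 genes). No array put any of the 16 at the floor of the scale (log2 1.91).

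In the PVN 1 of 12 tested probe sets passed, that of Pik3r1, and it was lower in SHR. In the SON 3 of 12 passed, those of Insr, Irs2 and Pik3r1. Irs2 and Pik3r1 were lower in SHR, and so was Insr, whose direction was fixed by the filter because only its WKY mean reached the level. Counting only probe sets with both group means at the level, 1 of 11 passed in the PVN and 2 of 10 in the SON. None of these changes reached 2-fold, and 0 members passed higher in SHR in either nucleus, although 3 tested differences in the PVN and 5 in the SON were above 0. Among the 5 in the SON, Akt1 1375178_at (0.03) entered only through SHR, which fixed its sign. Pik3r1, the regulatory subunit p85alpha, was the gene that passed in both nuclei. The study itself named Pik3r1 among its SON genes, selected with another normalisation, filter and test and a 2-fold limit.

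**Figure D1:**
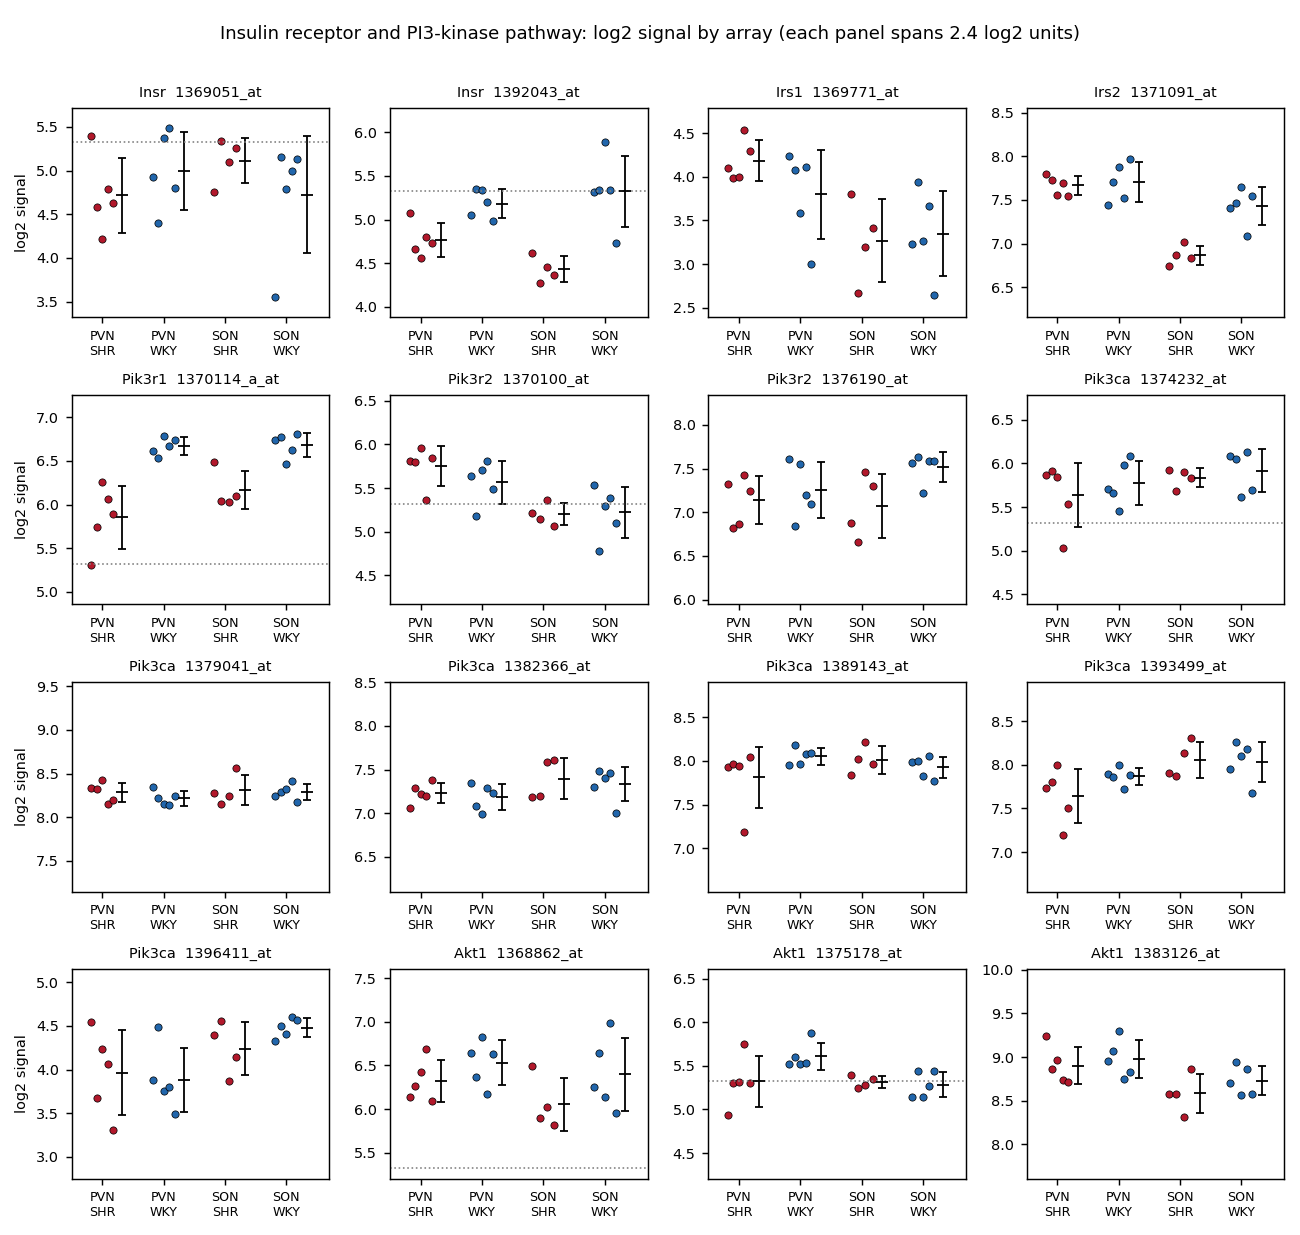
Log2 signal of each array (points, SHR red, WKY blue) for the 16 probe sets in PVN SHR, PVN WKY, SON SHR and SON WKY, with the mean and SD of each group beside its points and a dotted line at the filter level of the 4-group fit (log2 5.32). In the Pik3r1 panel the 5 PVN SHR points end at 6.26 and the 5 PVN WKY points begin at 6.53, and in the Irs2 panel the 4 SON SHR points lie below all other points.

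Insr encodes the receptor itself and had 2 probe sets, both dim. The RefSeq window from 250 bases before to 50 bases after its start (chr12:6128754-6129053 of the assembly GRCr8, minus strand) is shown because Insr is the first gene of the pathway and passed in the SON. Capitals mark the only match to the FOXO core, the letters GTAAACA or, on the other strand, TGTTTAC.
Insr: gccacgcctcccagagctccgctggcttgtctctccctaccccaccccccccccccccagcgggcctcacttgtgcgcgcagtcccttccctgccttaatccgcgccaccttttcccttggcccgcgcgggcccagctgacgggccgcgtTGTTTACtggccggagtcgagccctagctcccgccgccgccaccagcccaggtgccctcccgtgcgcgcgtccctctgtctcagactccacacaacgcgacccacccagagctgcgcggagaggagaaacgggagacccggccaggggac
The FOXO factors lie downstream of Akt, and the core stood in 1265 of 33469 such windows of the rat (3.78%). Among the 6 of 7 members with a window in the table, Insr and Pik3ca held 1 match each and the other 4 held 0. A match of letters describes the window only, and the windows of the members were not checked to cover like regions.

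The probe set 1392043_at of Insr read 4.62, 4.27, 4.46 and 4.37 in SON SHR arrays 1 to 4, against 5.31, 5.34, 5.89, 5.33 and 4.73 in SON WKY arrays 1 to 5. The lowest WKY array (4.73) lay above the highest SHR array (4.62), so the groups did not overlap. The difference was -0.89 (95% interval -1.29 to -0.49, SE 0.18, adjusted p = 0.0209), or 1.85-fold lower in SHR. This probe set entered the SON test only through the WKY group, whose mean of 5.32 just reached the filter level, while the SHR mean was 4.43, so a probe set selected in this way had to show a lower SHR mean. Without the filter the adjusted p was 0.106. In the PVN it was too dim to be tested, with means of 4.76 ± 0.20 in SHR and 5.18 ± 0.16 in WKY (SD, n = 5 each), and the groups overlapped.

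The other Insr probe set, 1369051_at, did not share this difference. Its means were 5.12 ± 0.26 in SON SHR (SD, n = 4) and 4.73 ± 0.67 in SON WKY (SD, n = 5), a difference of 0.39 in the opposite direction with overlapping arrays. SON WKY array 1 was low here, at 3.56, while the other 4 WKY arrays lay between 4.79 and 5.15. This probe set was under the filter in every comparison. In the PVN it averaged 4.72 ± 0.43 in SHR and 5.00 ± 0.44 in WKY (SD, n = 5 each), again with overlap. With no filter on dim probe sets the strain difference of 1392043_at minus that of 1369051_at was -1.28 in the SON (95% interval -2.22 to -0.34, adjusted p = 0.418 over 6609 pairs) and -0.14 in the PVN (adjusted p = 0.878). The lower Insr signal in the SON of SHR is therefore a result of 1 of the 2 probe sets, and the other did not show it.

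Irs1 and Irs2 encode the adapters that carry the signal from the receptor to PI3-kinase. The probe set of Irs2 passed the filter in all fits and that of Irs1 in none. Irs2 read 6.74, 6.87, 7.01 and 6.84 in SON SHR arrays 1 to 4, against 7.40, 7.46, 7.65, 7.08 and 7.55 in SON WKY arrays 1 to 5. The SHR arrays ended at 7.01 and the WKY arrays began at 7.08, a narrow gap set by WKY array 4. The difference was -0.57 (95% interval -0.83 to -0.30, SE 0.12, adjusted p = 0.0258), or 1.48-fold lower in SHR.

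In the PVN the same Irs2 probe set did not separate the strains. Its means were 7.67 ± 0.11 in PVN SHR and 7.70 ± 0.23 in PVN WKY (SD, n = 5 each), a difference of -0.04 with a 95% interval of -0.29 to 0.22. Whether the strain difference was unequal between the nuclei was tested by the interaction, the SON difference minus the PVN difference, which was -0.53 for Irs2 (95% interval -0.88 to -0.17) with an adjusted p of 0.521 over 17095 probe sets. The Irs2 strain difference was thus not shown to differ between PVN and SON.

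Irs1 lay well below the filter. It averaged 4.18 ± 0.23 in PVN SHR and 3.80 ± 0.51 in PVN WKY (SD, n = 5 each), and 3.27 ± 0.47 in SON SHR (SD, n = 4) and 3.35 ± 0.49 in SON WKY (SD, n = 5). The strains overlapped in both nuclei. Within SHR the 4 SON arrays (2.67 to 3.80) lay below the 5 PVN arrays (3.98 to 4.54), a difference of -0.91 that was not tested because the probe set was dim.

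Pik3r1 encodes p85alpha, the most widely used regulatory subunit of class I PI3-kinase, which holds the catalytic subunit steady and docks it on the phosphorylated adapters. Its RefSeq window (chr2:34697611-34697910 of GRCr8, minus strand, again 250 bases before to 50 after the start) is shown because Pik3r1 is the member that passed in both nuclei. Capitals mark the GC box, the letters GGGCGG or, on the other strand, CCGCCC, the usual binding motif of Sp1-type factors.
Pik3r1: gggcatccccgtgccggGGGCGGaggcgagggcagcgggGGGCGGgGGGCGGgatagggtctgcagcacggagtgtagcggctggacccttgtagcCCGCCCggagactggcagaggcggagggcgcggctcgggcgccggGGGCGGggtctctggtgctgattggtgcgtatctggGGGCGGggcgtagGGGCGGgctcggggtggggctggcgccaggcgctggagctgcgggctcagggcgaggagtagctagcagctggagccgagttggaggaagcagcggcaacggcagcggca
The window held 7 GC boxes, against 3 in Irs1, 2 in Pik3r2 and 0 in Insr, Pik3ca and Akt1. At least 1 GC box stood in 33.1% of the 33469 windows. These counts too describe windows around annotated starts, which were not checked to cover like regions.

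In the PVN Pik3r1 read 5.31, 5.75, 6.26, 6.06 and 5.90 in SHR arrays 1 to 5, against 6.61, 6.53, 6.79, 6.67 and 6.74 in WKY arrays 1 to 5. All SHR arrays lay below all WKY arrays, and the SHR arrays were spread more widely, with an SD of 0.36 in SHR against 0.10 in WKY. The difference was -0.81 (95% interval -1.13 to -0.50, SE 0.15, adjusted p = 0.00571), or 1.76-fold lower in SHR. The methods' t-test, which lets the spread differ between the groups, gave an adjusted p of 0.184, and the test without the filter gave 0.067. SHR array 1 was the lowest, and without it the difference was -0.68 (adjusted p = 0.00421).

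In the SON Pik3r1 read 6.49, 6.05, 6.02 and 6.10 in SHR arrays 1 to 4, against 6.74, 6.77, 6.47, 6.62 and 6.80 in WKY arrays 1 to 5. SHR array 1 stood apart from the other 3 SHR arrays and overlapped WKY array 3. The difference was -0.52 (95% interval -0.78 to -0.25, SE 0.12, adjusted p = 0.0378), or 1.43-fold lower in SHR, and -0.63 without SHR array 1 (adjusted p = 0.0138). The call held in 2 of 9 fits with an array left out, with adjusted p-values up to 0.122 (without SHR array 3), and it was lost with no filter (0.101) and with the methods' t-test (0.144). The interaction was 0.30 (95% interval -0.13 to 0.72, adjusted p = 0.835), so the strain difference of Pik3r1 was not shown to differ between the nuclei.

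Pik3r2 encodes p85beta, the second regulatory subunit of the same family. The probe set with the higher mean signal, 1376190_at, averaged 7.07 ± 0.37 in SON SHR (SD, n = 4) and 7.52 ± 0.17 in SON WKY (SD, n = 5), a difference of -0.45 that did not pass (95% interval -0.80 to -0.09, adjusted p = 0.152). The 4 SHR arrays were split, with 6.88 and 6.65 in arrays 1 and 2 and 7.46 and 7.30 in arrays 3 and 4. In the PVN the means were 7.14 ± 0.28 in SHR and 7.26 ± 0.32 in WKY (SD, n = 5 each; adjusted p = 0.818). The other probe set, 1370100_at, averaged 5.76 ± 0.23 in PVN SHR and 5.57 ± 0.24 in PVN WKY (SD, n = 5 each; difference 0.19, adjusted p = 0.621), and it was under the filter in the SON, at 5.20 ± 0.13 in SON SHR (SD, n = 4) and 5.22 ± 0.30 in SON WKY (SD, n = 5).

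Pik3ca encodes p110alpha, the catalytic subunit that p85 carries, and its 6 probe sets gave 5 tested differences in each nucleus, of which 0 passed. In the SON the 5 tested differences between SHR and WKY ran from -0.08 to 0.09, and the widest interval among them reached from -0.28 to 0.32. In the PVN they ran from -0.24 to 0.07. The probe set with the highest mean signal, 1379041_at, varied little, at 8.29 ± 0.11 in PVN SHR and 8.22 ± 0.08 in PVN WKY (SD, n = 5 each), and at 8.31 ± 0.17 in SON SHR (SD, n = 4) and 8.29 ± 0.09 in SON WKY (SD, n = 5). The most negative PVN differences, -0.24 at 1389143_at and -0.22 at 1393499_at, each went with PVN SHR array 4, which read 7.19 at both, while the other 4 SHR arrays lay between 7.93 and 8.04 at 1389143_at and between 7.50 and 7.99 at 1393499_at. The sixth probe set, 1396411_at, stayed under the filter with group means between 3.88 and 4.48.

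Akt1 encodes the kinase that PIP3 recruits, and its 3 probe sets gave 0 passing strain differences. The one with the highest mean signal, 1383126_at, averaged 8.90 ± 0.22 in PVN SHR and 8.98 ± 0.22 in PVN WKY (SD, n = 5 each), and 8.59 ± 0.22 in SON SHR (SD, n = 4) and 8.73 ± 0.17 in SON WKY (SD, n = 5). Its intervals were -0.36 to 0.20 in the PVN and -0.42 to 0.14 in the SON. At 1375178_at the PVN difference was -0.29 (adjusted p = 0.38), and at 1368862_at the SON difference was -0.34 (adjusted p = 0.402). The probe set 1375178_at entered the PVN test only through WKY (mean 5.61, against 5.32 in SHR, under the level), which fixed the sign of its difference there. In the SON it entered only through SHR (mean 5.32, against 5.29 in WKY, under the level), which fixed the sign of its difference of 0.03.

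**Figure D2:**
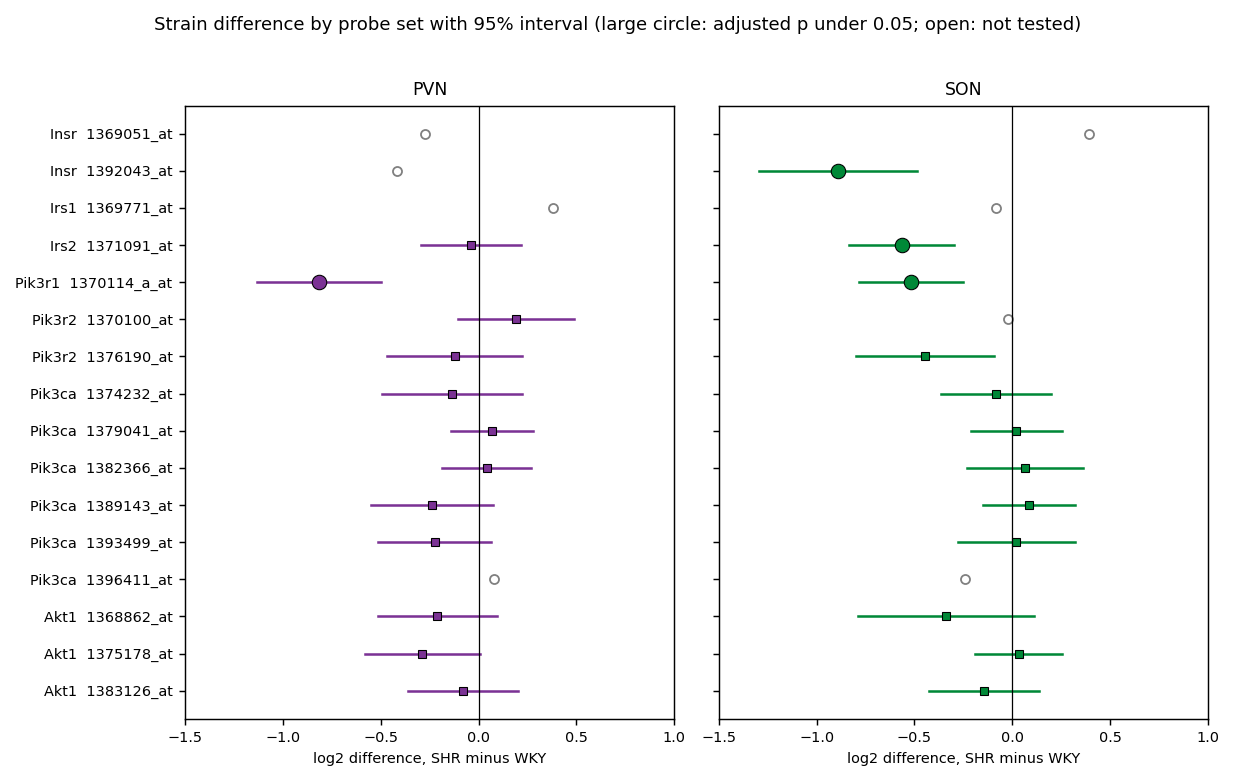
Difference in log2 signal, SHR minus WKY, of the 16 probe sets in the PVN (left) and the SON (right), with the 95% interval of the limma fit for tested probe sets and open circles for the untested ones. Large circles mark the probe sets that passed, Pik3r1 at -0.81 in the PVN and Insr, Irs2 and Pik3r1 at -0.89, -0.57 and -0.52 in the SON.

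Over the whole array, 1.22% of 16104 tested probe sets passed lower and 1.14% higher in the PVN of SHR, and 0.627% passed with a 2-fold difference, against 1, 0 and 0 of the 12 members. In the SON 2.33% of 16190 passed lower, 1.29% higher and 0.766% with a 2-fold difference, against 3, 0 and 0 of the 12 members. With both group means at the filter level 2 of 10 members passed, a subset for which no share over the array was counted. Groups that did not overlap, with SHR lower, made up 2.52% of tested probe sets in the PVN (1 of 12 members) and 6.94% in the SON (2 of 12 members, 1 of them Insr). The methods' t-test, on the values and filter used here and not the study's selection, passed 0 of 12 members in each nucleus after adjustment. At an unadjusted p under 0.05 it gave 1 of 12 in the PVN, against 11.9% of all probe sets. In the SON it gave 3 of 12, against 17.1%. Both are near the share over the array.

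The passing results were also fitted with single arrays left out. With each array left out in turn, between 0 and 2 members passed in the SON, and 0 passed without SHR array 2, SHR array 4 or WKY array 2. Where tested, the differences ran between -0.65 and -0.51 for Irs2 and between -0.63 and -0.47 for Pik3r1 (9 fits each). For Insr they ran between -1.04 and -0.84 in 8 fits. Without WKY array 3, its highest WKY array (5.89), Insr was not tested, so that fit is missing from its range. In the PVN Pik3r1 passed in 10 of 10 fits with an array left out, with differences between -0.92 and -0.68.

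**Figure D3:**
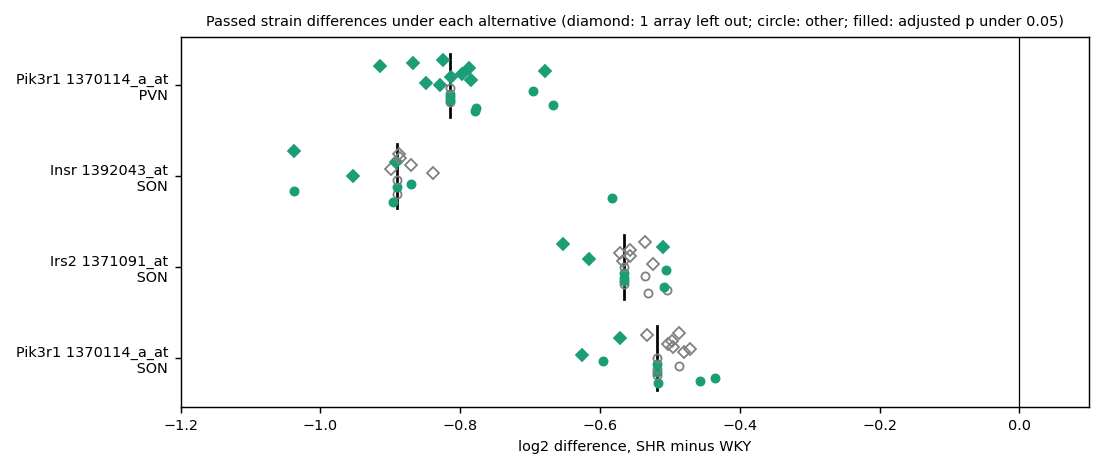
Difference in log2 signal, SHR minus WKY, of the 4 passing results under each alternative processing in which the probe set was tested (circles) and with 1 array left out (diamonds), filled where the adjusted p was under 0.05, with the reported value as a vertical bar. All points lie below 0, which the filter fixed in advance for Insr wherever only WKY reached its level. The Pik3r1 result in the PVN passed in 17 of 19 alternatives, and the SON results passed in 8 of 15 for Insr and in 8 of 19 each for Irs2 and Pik3r1.

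Markers of cell types moved with these comparisons as well, and in bulk tissue fewer cells of a type and less RNA per cell cannot be told apart. In the SON the summed signal of 8 neurone markers ranged from 7753 to 8317 in SHR and from 8704 to 10689 in WKY, without overlap, and 0 of the 9 tested probe sets passed. The summed signal of 8 meningeal markers ranged from 2425 to 6839 in SON SHR and from 1976 to 3126 in SON WKY, with 2 of 13 tested probe sets higher in SHR (Dcn at 1.04 and Lum at 1.00). In the PVN 6 markers of ependyma and choroid plexus summed to between 1032 and 1352 in SHR and to between 815 and 985 in WKY, without overlap, with 2 of 5 tested probe sets higher (Tekt1 at 0.47 and Ak7 at 0.48). Of 7 genes of magnocellular neurones, Sim1 was lower in SHR in both nuclei (-0.94 in the PVN, -0.97 in the SON). Avp and Oxt differed by -0.29 and -0.25 in the PVN and by -0.12 and -0.03 in the SON without passing. Pou3f2 was at the floor on all 19 arrays. The 6 tested probe sets of this list had a median of -0.35 in the PVN and -0.26 in the SON, and its summed signals overlapped between the strains. Of 11 tested probe sets of oligodendrocyte genes, 1 passed in each nucleus, Mobp, lower in SHR (-1.61 in the PVN, -0.88 in the SON), while the median of the list was -0.19 in the PVN and -0.02 in the SON and its summed signals overlapped between the strains. The astrocyte, microglia and endothelium lists had 0 passing probe sets in either nucleus, and their summed signals overlapped between the strains. The part of these markers in the strain differences of Pik3r1, Insr and Irs2 was not tested.

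For the genes measured by several probe sets, it was asked whether the probe sets gave unequal strain differences. The probe set with the highest mean was set against each other tested probe set of the gene through their difference on each array. In the PVN 0 of 7 member pairs (Akt1, Pik3ca and Pik3r2) passed, against 2.75% of 2582 pairs over all genes, and 1 had an unadjusted p under 0.05. In the SON 0 of 6 member pairs (Akt1 and Pik3ca) passed, against 1.8% of 2562 pairs, and 0 had an unadjusted p under 0.05. No share over all pairs was counted at an unadjusted p. The pair nearest to passing was 1379041_at over 1393499_at of Pik3ca in the PVN, with a difference between strain differences of 0.29 (95% interval 0.03 to 0.55, adjusted p = 0.317). The SON pairs of Pik3ca lay closer, between -0.06 and 0.10. Insr and, in the SON, Pik3r2 had no pair in which both probe sets passed the filter.

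The nuclei were then compared within each strain, in a fit of all 4 groups in which 12 of the 16 probe sets were tested. These comparisons use the same arrays as the strain comparisons. In SHR 3 members passed, with Irs2 and Pik3r2 lower and Pik3ca higher in the SON, the direction of Pik3r2 being fixed by the filter. Of the 10 probe sets with both group means at the level, Irs2 and Pik3ca passed. In WKY 0 members passed by limma, while 3 had an unadjusted p under 0.05, for which no share over the array was counted.

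Irs2 showed the largest nuclear difference of the tested members in SHR. The 4 SON SHR arrays (6.74 to 7.01) lay below the 5 PVN SHR arrays (7.55 to 7.79), and the difference was -0.80 (95% interval -1.06 to -0.54, SE 0.12, adjusted p = 5.2e-05). In WKY the SON arrays (7.08 to 7.65) overlapped the PVN arrays (7.44 to 7.97), with a difference of -0.27 (95% interval -0.52 to -0.03, adjusted p = 0.0885). Among the 4 groups the Irs2 means ran 6.86 in SON SHR, 7.43 in SON WKY, 7.67 in PVN SHR and 7.70 in PVN WKY, and the last 2 did not differ beyond their spread.

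The Pik3r2 probe set that passed in SHR was 1370100_at. It was tested only through the PVN groups, since both SON means lay under the filter level, and this fixed the direction of its difference. The SON SHR arrays read 5.07 to 5.37 and the PVN SHR arrays 5.37 to 5.96, a difference of -0.56 (95% interval -0.88 to -0.24, adjusted p = 0.00946), in which the lowest PVN array, SHR array 4, reached down to the SON values. In WKY the difference was -0.34 (95% interval -0.65 to -0.04, adjusted p = 0.085). The other probe set of the gene, 1376190_at, did not show this, with -0.06 in SHR (95% interval -0.44 to 0.31) and 0.26 in WKY (95% interval -0.09 to 0.62).

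Pik3ca was higher in the SON of SHR at 1393499_at alone, by 0.41 (95% interval 0.11 to 0.72, adjusted p = 0.0393), with SON arrays from 7.87 to 8.30 and PVN arrays from 7.19 to 7.99. Without PVN SHR array 4, the lowest of these, the difference was 0.30 and did not pass. The other 4 tested probe sets of Pik3ca differed by 0.02 to 0.20 in SHR. In WKY the 5 tested differences ran from -0.13 to 0.16.

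Pik3r1 did not differ between the nuclei of WKY, with 0.01 (95% interval -0.28 to 0.30), and in SHR the difference was 0.31 (95% interval -0.00054 to 0.62, adjusted p = 0.125). The order of its group means was 5.85 in PVN SHR, 6.16 in SON SHR, 6.67 in PVN WKY and 6.68 in SON WKY, so that both SHR means lay below both WKY means. For Akt1, 1375178_at read 5.14 to 5.44 in SON WKY and 5.52 to 5.88 in PVN WKY (difference -0.32, adjusted p = 0.0534). It was tested only through PVN WKY, which fixed the sign.

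**Figure D4:**
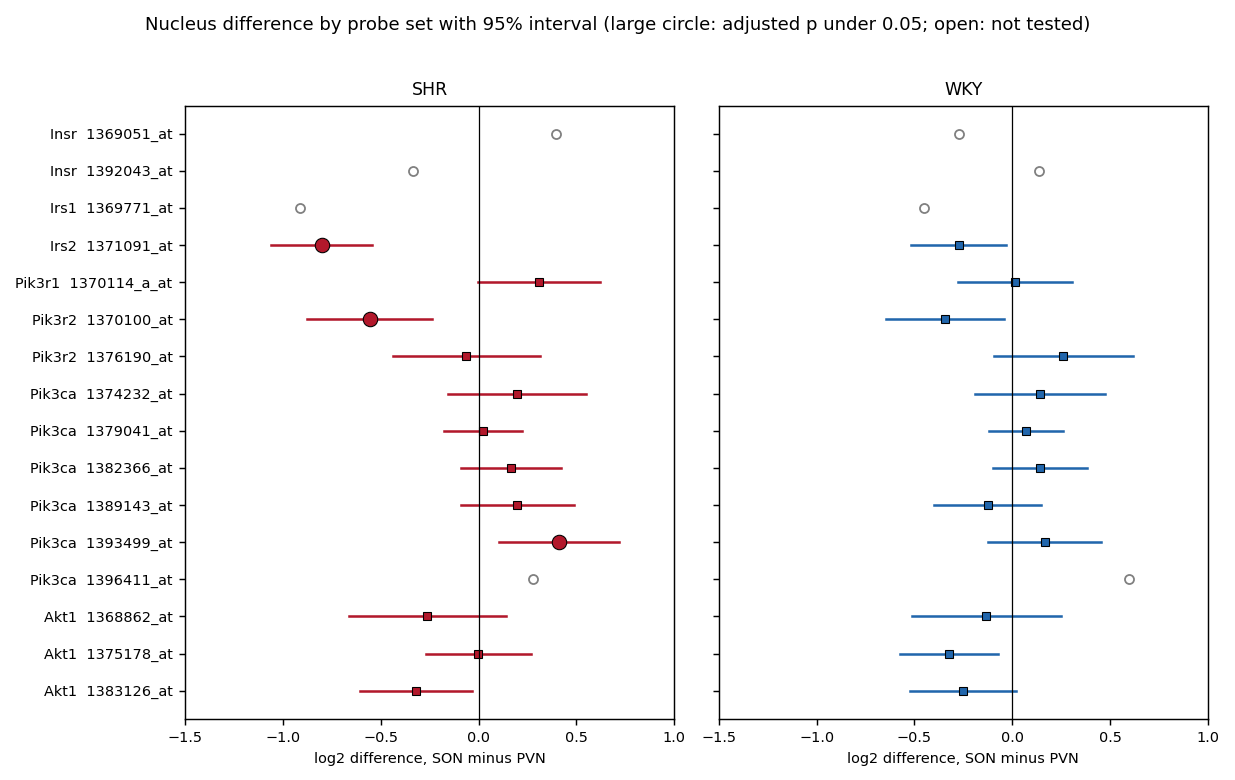
Difference in log2 signal, SON minus PVN, of the 16 probe sets in SHR (left) and WKY (right), with 95% intervals from the fit of all 4 groups and open circles for untested probe sets. Large circles mark Irs2 (-0.80), Pik3r2 (-0.56) and Pik3ca (0.41) in SHR, and the WKY panel has none.

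Differences between the nuclei were common on these arrays. In SHR 15.7% of 17095 tested probe sets were lower and 13.7% higher in the SON, against 2 and 1 of the 12 members, 1 of the lower being Pik3r2 with its fixed direction. In WKY 13.7% were lower and 13.2% higher, against 0 and 0 members. The interaction passed for 0.0819% of probe sets and for 0 of the 12 members, of which 1 (Irs2) had an unadjusted p under 0.05. At an unadjusted p no share over the array was counted for it. The meningeal markers were all higher in the SON in both strains, in 13 of 13 tested probe sets with a median difference of 4.03 in SHR and 3.37 in WKY, and their part in the nuclear differences of the members was not tested.

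The rest of the pathway was followed through 86 other genes in 7 lists, from receptors and ligands to the targets of Akt, of which 75 were on the array with 129 probe sets. In the PVN 0 of 74 tested probe sets passed between the strains by limma, against 1.22% lower and 1.14% higher over the array. In the SON 1 of 73 passed, against 2.33% lower and 1.29% higher. At an unadjusted p under 0.05 limma gave 9 in the PVN and 17 in the SON, for which no share over the array was counted. The methods' t-test passed 0 in each nucleus. At an unadjusted p under 0.05 it gave 13.5% of these probe sets in the PVN, against 11.9% over the array. In the SON it gave 19.2%, against 17.1%. The median strain difference of these probe sets was -0.03 in the PVN and -0.11 in the SON, against -0.04 in each nucleus over all probe sets. The strain differences of the lists in the PVN had medians between -0.15 for the receptors and ligands and 0.05 for the catalytic subunits. In the SON the medians ran from -0.22 for the 1 tested regulatory subunit, Pik3r4, to 0.27 for the catalytic subunits. Neither Pik3r4 nor the tested catalytic genes (Pik3c2a, Pik3c2b, Pik3c3 and, in the PVN, Pik3c2g) belong to the class I enzyme described above.

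The probe set that passed in the SON was that of Pik3c3, the class III PI3-kinase Vps34, which works in autophagy and endosome traffic and does not pair with p85. It was higher in SHR, at 6.54 ± 0.09 in SON SHR (SD, n = 4) and 6.05 ± 0.20 in SON WKY (SD, n = 5), a difference of 0.49 (SE 0.12, adjusted p = 0.0415) without overlap. In the PVN the means were 6.64 ± 0.39 in SHR and 6.13 ± 0.08 in WKY (SD, n = 5 each), a difference of 0.52 that did not pass (adjusted p = 0.115).

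**Figure D5:**
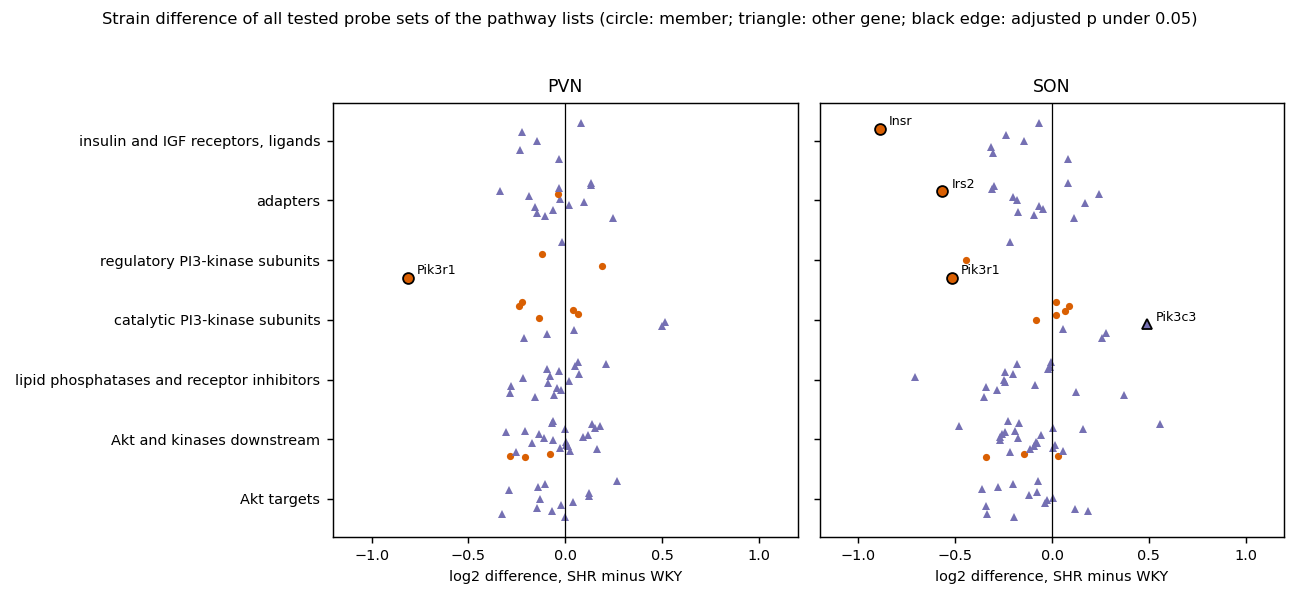
Difference in log2 signal, SHR minus WKY, of all tested probe sets of the 7 pathway lists in the PVN (left) and the SON (right), with members as circles and other genes as triangles, and a black edge and a name where the adjusted p was under 0.05. The named points are Pik3r1 at -0.81 in the PVN, and Insr, Irs2 and Pik3r1 below 0 and Pik3c3 above 0 in the SON.

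Between the nuclei 7 of 77 tested probe sets passed higher and 12 lower in the SON of SHR, against 13.7% and 15.7% over the array. In WKY 6 passed higher and 8 lower, against 13.2% and 13.7% over the array. Of these, 4 in each strain had a group mean under the filter level. Among the adapters, Shc1, which links receptors to the Ras pathway, was higher in the SON by 0.64 in SHR and 0.69 in WKY, and Sh2b2, an adapter that binds the activated insulin receptor, was lower, with differences of -1.17 in SHR and -0.71 in WKY. Pik3c2g, a class II PI3-kinase known mainly from liver, was lower in the SON too (-1.83 in SHR, -1.28 in WKY). Sh2b2 was tested only through its PVN groups and Pik3c2g only through PVN SHR, so that the filter favoured a lower SON mean in both. Ptprf, a receptor tyrosine phosphatase, was lower as well (-0.39 in SHR, -0.32 in WKY).

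Downstream of Akt, Eif4ebp1, the repressor of translation that mTOR inactivates, was higher in the SON by 0.85 in SHR and 0.81 in WKY. From the same list Sgk1, a kinase related to Akt and not placed below it, was higher by 1.10 in SHR and 0.67 in WKY. Nos3, the endothelial nitric oxide synthase, was higher by 0.74 in SHR and 0.83 in WKY, and it was tested only through SON WKY, where it is high. Of the 9 tested probe sets of 7 endothelial marker genes, 5 passed higher in the SON of SHR and 7 in WKY, and their part in the Nos3 difference was not tested. Cdkn1a, the cell cycle inhibitor p21, was lower (-0.96 in SHR, -1.22 in WKY). The interaction passed for 0 of the 77 probe sets by limma, with 5 at an unadjusted p under 0.05, for which no share over the array was counted.

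Genes whose signal followed that of a member most closely were found by Pearson's correlation over the 19 arrays, taking for each member the probe set with the highest mean. The 19 points share 4 groups, 2 strains and 2 nuclei, so the values are descriptions. Each is among the highest of at least 12993 candidate probe sets, so high values arise by selection. The probe sets of Insr and Irs1 were dim, under the filter of the 4-group fit. Pik3r1 was followed most closely by Snx10 (r = 0.878) and Ddx42 (r = 0.862), Insr by Syn2 (r = 0.872) and Bcat1 (r = 0.846), and Irs2 by Myt1 (r = 0.893) and Sema3e (r = 0.871). Akt1 had the highest values, with Ugdh (r = 0.940) and Timm29 (r = 0.928). The values were lower for Irs1 (Camsap3 and Racgap1, the second at 0.820), Pik3r2 (Gart at 0.791, Dele1 at 0.760) and Pik3ca (Surf2 at 0.788, Nolc1 at 0.787).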

How the data were processed

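Total RNA of PVN and SON was amplified linearly, labelled with biotin and hybridised to Affymetrix Rat Genome 230 2.0 arrays. The deposited values are intensities, MAS 5.0 signals on a linear scale for 31099 probe sets on 19 arrays, which the authors made before their GeneSpring normalisation and filter on present calls. The table holds no depth or detection call, so the number of arrays limits the precision. The fifth SON SHR array was not analysed here.

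From these values, 57 control probe sets were left out, each array was scaled to the median of the array medians (35.9 to 46.5), values below the 10th percentile of all signals (3.77) were raised to it, and log2 was taken. Array medians thus differed by 0.37 on the log2 scale before scaling. Arrays of one group correlated at 0.954 to 0.980 on average (lowest for SON WKY array 3), and no array was left out. Tests were run with lmFit and eBayes of limma 3.58.1, under R 4.3.3 (two-sided, Benjamini-Hochberg over all probe sets tested), with strains fitted within each nucleus and nuclei and interaction in a fit of all 4 groups (filter level 5.32). The threshold was an adjusted p of 0.05, and a 2-fold difference was counted separately. The methods' t-test was an alternative, as were other normalisation, floor, filter, samples, replicate block, moderation and array weights, and each array left out. That t-test used the scaling and filter given here, so it does not repeat the study's own selection of genes. The limma fit was also tried on simulated data, with the same spread in all groups and without the scaling, floor or filter. That trial therefore does not test those steps.

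Gene symbols are those of the platform annotation, matched through the Entrez number to GRCr8 for 20758 of 20826 probe sets with 1 symbol. Windows around the annotated start are those of RefSeq, GRCr8, and 6 of 7 members were matched (not Irs2). In Pik3ca the 50 bases after the start open with the letters ATG. Whether each annotated start is a start of transcription was not checked, so the windows are not called promoters. Named were all members, the genes of 7 pathway lists that passed between strains (at most 3 a list), at most 2 a list that passed between nuclei in both strains, by size of difference, and the 2 genes most like each member. Genes and probe sets of marker lists were added as values. The members and lists were chosen with earlier results of these data known. Nothing in the labels says that arrays of a group came from separate pools of animals, so p-values measure the spread between these arrays. The plots come from matplotlib 3.10.9 (Python 3.11.15).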

Additional observations from a re-analysis of the deposited data

Results flagged for a closer look

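Among the 64 group-by-probe-set combinations of the members, 6 held an array whose gap to its nearest neighbour was large for the range of its group, by Dixon's criterion at a level at which chance gives about 1 in 20. Pik3r1 in SON SHR array 1 read 6.49, while the other 3 arrays lay between 6.02 and 6.10, and this array is the one that overlapped WKY. Insr 1369051_at in SON WKY array 1 read 3.56, against 4.79 to 5.15 in the other 4. Pik3r2 1376190_at in SON WKY array 3 read 7.22, against 7.56 to 7.63 in the other 4. PVN SHR array 4 stood low at both Pik3r2 1370100_at (5.37, against 5.79 to 5.96) and Pik3ca 1389143_at (7.19, against 7.93 to 8.04). Akt1 1375178_at in PVN WKY array 5 read 5.88, against 5.52 to 5.60 in the other 4.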

How the results depend on the processing

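None of the 7 passing differences of members changed direction under an alternative in which its probe set was tested. For Insr in the SON and Pik3r2 in SHR the filter had fixed the direction. Their kept direction in filtered alternatives is therefore no added support. In the PVN the count of members that passed, 1, became 0 with no filter, with the stricter filter (every array at least at the median of all signals, which left Pik3r1 untested) and with the methods' t-test, and it was 1 in all 10 fits with an array left out. In the SON the count of 3 became 1 with the values as deposited, with all 4 groups in the fit and with the replicate block, became 0 with no filter and with the methods' t-test, and ranged from 0 to 2 with an array left out. Insr was not tested in the SON with the values as deposited, the stricter filter, all 4 groups in the fit or without WKY array 3. For SON against PVN in WKY the count of 0 became 2 with quantile normalization, 1 with the groups of 1 strain in the fit and 1 with arrayWeights, and ranged from 0 to 1 with an array left out. The count in SHR ranged from 2 to 4, and those of the interaction and of unequal probe sets stayed at 0 in all 27 alternatives. Pik3ca in SON against PVN of SHR passed in 10 of 18 alternatives (0.28 to 0.50). Same-numbered arrays did not all deviate together, so the numbers were not taken as pairs. Correlations of their deviations ran from -0.226 to 0.104 between strains. Between nuclei they were all above 0 in SHR (0.035 to 0.174) and ran from -0.00909 to -0.00113 in WKY. The labels do not say whether SON and PVN arrays share animals, and the comparisons of nuclei treated the arrays as independent. With the replicate block Insr kept its call (-1.04, adjusted p = 0.0103), while Irs2 (adjusted p = 0.0685) and Pik3r1 (adjusted p = 0.0823) in the SON did not. The number of all probe sets that passed in the PVN, 380, became 608 with the values as deposited, 241 with no filter, 230 with the stricter filter, 900 with arrayWeights, 119 with the methods' t-test and 736 without SHR array 1. In the SON 586 became 291 with no filter, 342 with the replicate block, 938 with trended robust moderation, 1573 with arrayWeights, 176 with the methods' t-test and 322 to 358 without SHR array 2, SHR array 3 or WKY array 2. For the interaction 14 became 22 with quantile normalization, 6 with the stricter filter, 48 with arrayWeights and 6 to 8 in several fits with an array left out. The cause of these changes was not tested.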
